A study of Mus musculus with 2 samples.

Results

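MHC class II dendritic cells of the mouse lower incisor are described here from single-cell transcript counts. They were defined by transcripts alone, as barcodes with at least 20 unique molecular identifiers (UMIs, each standing for 1 captured RNA molecule) of the class II genes H2-Aa, H2-Ab1, H2-Eb1 and Cd74, and at least 2 UMIs summed over Cd209a, Flt3, Clec4b1, Mgl2 and Tnip3. They were allowed at most 2 UMIs of the complement genes C1qa, C1qb and C1qc, and 0 UMIs of the B cell genes Cd79a and Ms4a1, of the plasmacytoid gene Siglech and of the T cell genes Cd3d, Cd3e and Cd3g. This selected 72 of 4543 cells, 1.58% (1.24 to 1.99).

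Dendritic cells take up antigen in tissues and display its peptides on MHC class II molecules to CD4 T cells. Class II chains are loaded inside the cell with the help of the invariant chain (Cd74) and the chaperones H2-DM and H2-DO, and their genes are switched on by the coactivator CIITA. Conventional dendritic cells depend on the receptor Flt3 and fall into a type 1, marked by Xcr1 and Clec9a, and a type 2, which in mouse often carries the lectins Cd209a, Mgl2 and Clec10a. In dental pulp, class II dendritic cells are known to lie near the odontoblast layer and the vessels beside a larger number of macrophages.

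The cells came from untreated C57BL/6 mice of 4 weeks, labelled as dental mesenchyme, and the pulp was taken out with its dental epithelium before collagenase digestion. The number of animals is not given, the 2 deposited titles differ only in the sequencing lane, and all barcodes stand in 1 matrix without a map to titles. All values therefore come from 1 sample. Groups of cells are set side by side without a test, since cells are not replicates. Ranges in parentheses are exact 95% intervals, by Clopper-Pearson for a share, Poisson for a summed count and a conditional binomial for a ratio, and they cover counting error only.

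The matrix held 68931830 UMIs over 31053 genes. Cells were kept with at least 500 detected genes, at most 20% mitochondrial UMIs and at most 5% haemoglobin UMIs. The 72 dendritic cells held 341095 UMIs, from 1122 to 20535 per cell with a median of 4337.5, and their median mitochondrial share was 7.47%. They were compared with 461 C1q macrophages (at least 10 C1q UMIs, median depth 4665 UMIs), 27 Ly6c2 monocytes (at least 2 Ly6c2 UMIs with Ccr2 and Csf1r and fewer than 20 class II UMIs, median 4712) and 85 class II B cells (at least 3 UMIs of Cd79a and Ms4a1 and at least 20 class II UMIs, median 1681). A further 710 mesenchymal cells (median 8253.5 UMIs) served as cells that should lack dendritic cell genes.

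Some dendritic cell barcodes carried RNA of other lineages. At least 10 UMIs of mesenchymal markers were present in 3 of them, of dental epithelial markers in 1 and of endothelial markers in 1, which made 4 barcodes in all. The deepest barcode (20535 UMIs, next deepest 9895) held 718 UMIs of the enamel gene Amelx, 80.2% of all Amelx UMIs in the dendritic cells, together with 133 UMIs of Calb1. Results that rest on these 4 barcodes are given with and without them. Over all 72 cells the summed mesenchymal markers had a median of 0 UMIs, and the epithelial markers were at 0 in 67. Amelx stood at 14928 CPM (UMIs of a gene per 1000000 UMIs summed over a group) in the near-empty droplets of 1 to 20 UMIs, at 2624 CPM in the dendritic cells and at 541 CPM without the 4 barcodes. A doublet score from simulated doublets exceeded 0.15 in 3 of the 72.

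The label of the cells was checked against markers that the selection had not used. Zbtb46, a transcription factor of conventional dendritic cells, was at 29.3 CPM (14.1 to 53.9) against 4.71 in macrophages, 11.4 in monocytes and 0 in B cells. Itgax, which encodes CD11c (an integrin), stood at 79.2 CPM against 8.64, 0 and 5.10 in the same order. Macrophage genes were low, with Trem2, Folr2, Mertk and Lyve1 at 0 UMIs and Apoe, at a median of 0 UMIs, present in 10 of 72 cells, of which 1 alone held 57 of 76 Apoe UMIs. Ly6c2, the monocyte gene, was seen in 4 cells with 4 UMIs in all. These markers, taken from longer lists, did not go against the label of dendritic cells, though Zbtb46 rests on 10 UMIs in 8 cells. Of 20 monocyte markers with at least 30 UMIs, 8 were at least 2-fold higher than in all other cells, among them Ccr2 and Cd14. The lower ones numbered 6. Over all genes measured against those cells, 25.9% were higher and 23.8% lower. Irf8, from the list of dendritic cell identity, was at least 2-fold lower than in macrophages, monocytes and B cells.

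The genes of the selection were not all found in the same cells. Cd209a, a DC-SIGN homologue, had a UMI in 49 of 72 dendritic cells, the lectin Clec4b1 in 45, the A20-binding protein gene Tnip3 in 40, the galactose-type lectin Mgl2 in 32 and the receptor Flt3 in 30. Of the 5 genes, 1 was detected in 12 cells, 2 in 18, 3 in 24, 4 in 14 and all 5 in 4. Their summed UMIs ranged from 2 to 26 with a median of 5. Single genes reached 17 UMIs per cell for Mgl2, 15 for Tnip3, 8 for Cd209a, 7 for Clec4b1 and 3 for Flt3. After each cell was thinned to 1500 UMIs (68 dendritic cells kept), Cd209a was detected in 42.6% of dendritic cells (30.7 to 55.2), in 0.232% of macrophages and in 0% of 707 mesenchymal cells (0 to 0.520). Unthinned, the dendritic cell share was 68.1%.

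Pairs of these genes differed in how often they met in a cell. Mgl2 was detected in 55.6% of cells with Clec4b1 and in 25.9% of cells without it, so 25 cells held both. Mgl2 was found in 33.3% of cells with Flt3 and in 52.4% of those without. Mgl2 had a UMI in 44.9% of cells with Cd209a and in 43.5% of the rest. The selection needs 2 UMIs over the 5 genes, which by itself ties them together, so these shares are a description.

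Cells on both sides of the thresholds were similar in some genes and not in others. Exactly 2 UMIs of the 5 genes were present in 11 dendritic cells, and 10 cells that met every other condition had 1 such UMI and 31 had 0. Napsa, an aspartic protease gene of dendritic and B cells, was at 213 CPM in the 11 cells just inside, 240 in the 10 with 1 UMI and 279 in the 31 with 0. The chemokine receptor gene Ccr7, which directs mature dendritic cells to lymph nodes, was at 77.5 CPM just inside and at 676 in the 10 cells just outside. Apoe was at 1318 CPM just inside, mostly from the 1 cell with 57 UMIs, and at 1549 and 1564 in the cells with 1 and 0. Lyz2 was at 2055, 4233 and 5938 CPM in the same order. The class II accessory gene H2-Oa was at 0 CPM just inside, against 173 over all 72 dendritic cells. The C1q condition alone left out 62 cells, of which the 4 with 3 to 5 C1q UMIs held Cd209a at 667 CPM and Mgl2 at 500.1 CPM. These 4 cells had 11998 UMIs in all. They still had to hold at least 2 UMIs of the 5 genes, so both levels are partly fixed by the selection. The condition on Siglech left out 9 further cells, that on B cell genes 3 and that on Cd3 genes 1.

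Class II transcripts set the level by which the cells were chosen, and they varied widely above the threshold. The 4 genes together had 21 UMIs in the lowest dendritic cell, a median of 245.5 and 539 in the highest, which was 0.278% to 15.3% of a cell's UMIs with a median of 5.60%. The median was 0.133% in macrophages, 1.97% in B cells and 0% in monocytes and mesenchymal cells. Class II genes made up 5.10% of all dendritic cell UMIs, 1.02% of macrophage UMIs and 1.65% of B cell UMIs. Macrophages overlapped with dendritic cells, since 194 of 461 had 20 or more class II UMIs and their highest value was 9.86%.

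**Figure D1:**
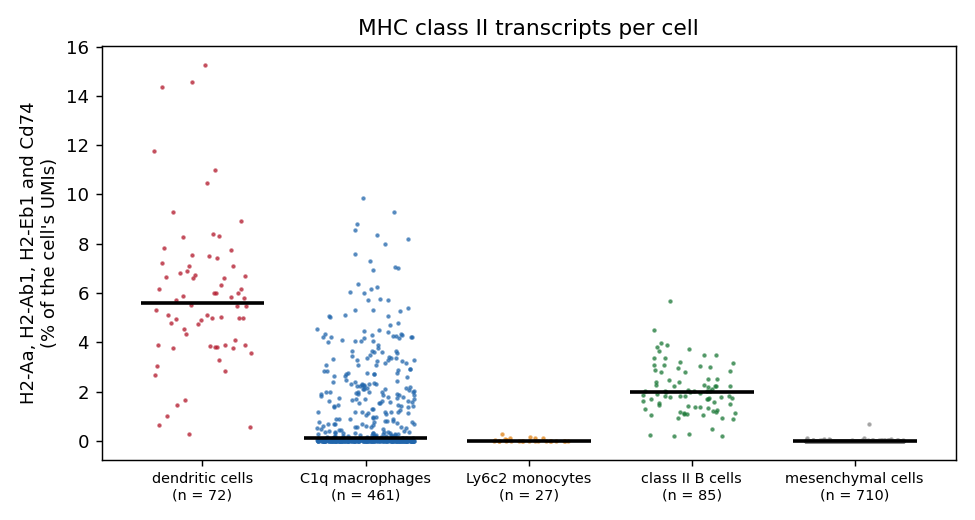
Share of each cell's UMIs that came from H2-Aa, H2-Ab1, H2-Eb1 and Cd74 (percent, vertical axis) in the 5 cell groups, with 1 point per cell and a bar at the median. Dendritic cells have a median of 5.60%, macrophages spread from 0 to 9.86% around a median of 0.133%, and B cells have a median of 1.97%; the class II genes were part of the selection of dendritic cells, monocytes and B cells.

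Each class II gene was found in all 72 cells. The beta chain gene H2-Eb1 summed to 11548 CPM (11190 to 11914) in dendritic cells, 2062 in macrophages and 1888 in B cells. The alpha chain gene H2-Aa was at 7584 CPM against 1298 and 1469, and H2-Ab1 at 7168 against 1382 and 1413. Cd74, the invariant chain, was at 24665 CPM against 5437 in macrophages and 11699 in B cells. The paralogous beta gene H2-Eb2 had 0 UMIs in the dendritic cells, which leaves a level of up to 10.8 CPM within the interval.

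The promoters of class II genes are known for shared short elements, so the sequence before the start site is shown for 5 of these genes, of which H2-Eb1 and H2-Aa were high, H2-DMb1 and H2-Oa were among the leading genes and H2-Eb2 was at 0. The windows are from RefSeq on GRCm38.p6, each covers the 150 bases before the annotated start, and capitals mark GATTGG (the Y box core, an inverted CCAAT) and AGCAAC (part of the X box bound by RFX proteins) on either strand. H2-Aa lies on the minus strand at chr17:34287824-34287973, and the others lie on the plus strand, with H2-Eb1 at chr17:34305717-34305866, H2-Oa at chr17:34092229-34092378, H2-DMb1 at chr17:34153041-34153190 and H2-Eb2 at chr17:34325525-34325674.
H2-Aa: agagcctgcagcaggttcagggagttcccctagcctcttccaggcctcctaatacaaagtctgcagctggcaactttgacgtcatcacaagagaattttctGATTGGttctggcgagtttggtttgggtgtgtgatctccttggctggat
H2-Eb1: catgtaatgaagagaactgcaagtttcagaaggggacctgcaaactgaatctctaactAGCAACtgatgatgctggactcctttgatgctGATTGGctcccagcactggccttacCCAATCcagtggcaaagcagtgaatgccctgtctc
H2-Oa: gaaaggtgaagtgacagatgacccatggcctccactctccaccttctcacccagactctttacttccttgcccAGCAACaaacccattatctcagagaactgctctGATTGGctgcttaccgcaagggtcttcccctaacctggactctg
H2-DMb1: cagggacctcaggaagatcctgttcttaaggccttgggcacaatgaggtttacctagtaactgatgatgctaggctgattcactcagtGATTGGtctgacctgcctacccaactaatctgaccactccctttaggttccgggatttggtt
H2-Eb2: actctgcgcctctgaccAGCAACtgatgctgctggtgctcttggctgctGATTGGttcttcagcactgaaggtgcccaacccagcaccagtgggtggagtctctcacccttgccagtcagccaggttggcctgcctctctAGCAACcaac

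GATTGG was found in a 300-base window (250 bases before and 50 after the start) of 8 of the 8 H2 class II genes that had one, against 16.1% of all 32851 windows of that length. H2-DMa had 2 windows, of which 1 held it, so by window it was found in 8 of 9. AGCAAC was found in 4 of the 8, against 14.8% of all windows. The longer CTGATTGG, which contains GATTGG, was in 4 of the 8 against 4.10%. GATTGG began 49 bases before the start of H2-Aa, 60 before that of H2-Eb1 and 44 before that of H2-Oa, and AGCAAC began 92 bases before the start of H2-Eb1 and 77 before that of H2-Oa. H2-Eb2 had both, 101 and 133 bases before its start, and 0 UMIs in the dendritic cells. A match describes letters only, and binding was not measured.

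Genes of class II loading outside the selected chains also differed from macrophages. The selection needs at least 20 class II UMIs and the macrophage group had no such condition. A higher level of genes that go with class II is therefore partly fixed by it. Of the 8 listed class II accessory genes that could be measured (at least 30 UMIs over both groups), 5 were at least 2-fold higher in dendritic cells and 2 were lower. Across all 7609 genes measured in this comparison, 5.98% were at least 2-fold higher and 26.3% were lower by as much, with a median log2 ratio of -0.38. The interval excluded no difference for 416 of the 455 higher genes but for only 1099 of the 2001 lower ones. The list had a median of 1.84, and of 1.93 without the 4 barcodes with RNA of other lineages.

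Ciita, the coactivator of class II genes, was at 99.7 CPM (69.0 to 139) in dendritic cells, 28.3 in macrophages, 25.5 in B cells and 0 in monocytes. H2-DMa and H2-DMb1, the chains of the peptide editor H2-DM, were at 765 and 677 CPM against 212 and 159 in macrophages, with log2 ratios of 1.85 (1.64 to 2.07) and 2.09 (1.85 to 2.33). H2-Oa, a chain of H2-DO that restrains H2-DM, showed the widest gap of this list with 173 CPM against 5.50 (log2 ratio 4.98, 4.12 to 5.93). It had a UMI in 37 of 72 dendritic cells and up to 5 UMIs in a cell. H2-DMb2 was at 96.7 against 6.28 CPM. The listed genes that were lower were Lgmn, the lysosomal protease legumain (82.1 against 1513 CPM), and Rfxap, a subunit of the RFX complex (14.7 against 43.6 CPM), while Ctss, the protease that trims the invariant chain, was at 909 against 1209 CPM. Class I presentation genes differed less, with 1 of 15 at least 2-fold higher (H2-Q7), 0 lower and a median log2 ratio of 0.11.

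Most genes of dendritic cell identity outside the selection were higher than in macrophages. Of 16 measured, 13 were at least 2-fold higher than in macrophages and 1 was lower (Irf8), with a median log2 ratio of 2.00. The counts were the same without the 4 barcodes. Among all measured genes 5.98% were higher and 26.3% lower. Klrd1, an NK receptor chain also found on dendritic cells, was at 258 CPM against 2.75, a log2 ratio of 6.55 (5.45 to 7.91), and it had a UMI in 37 of 72 cells. Napsa was at 413 against 11.8 CPM (5.13, 4.56 to 5.75) and present in 55 of 72 cells. Plbd1, a phospholipase B-like gene, was at 490 against 49.1 CPM and Gm2a, a lysosomal lipid-transfer cofactor, at 959 against 153 CPM. Clec10a, the paralogue of Mgl2, was also frequent in macrophages, at 358 against 148 CPM (1.28, 0.97 to 1.58). Thinned to 1500 UMIs, Klrd1 was detected in 33.8% of dendritic cells, 0.232% of macrophages and 0% of mesenchymal cells, and Napsa in 52.9%, 1.39% and 0%.

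**Figure D2:**
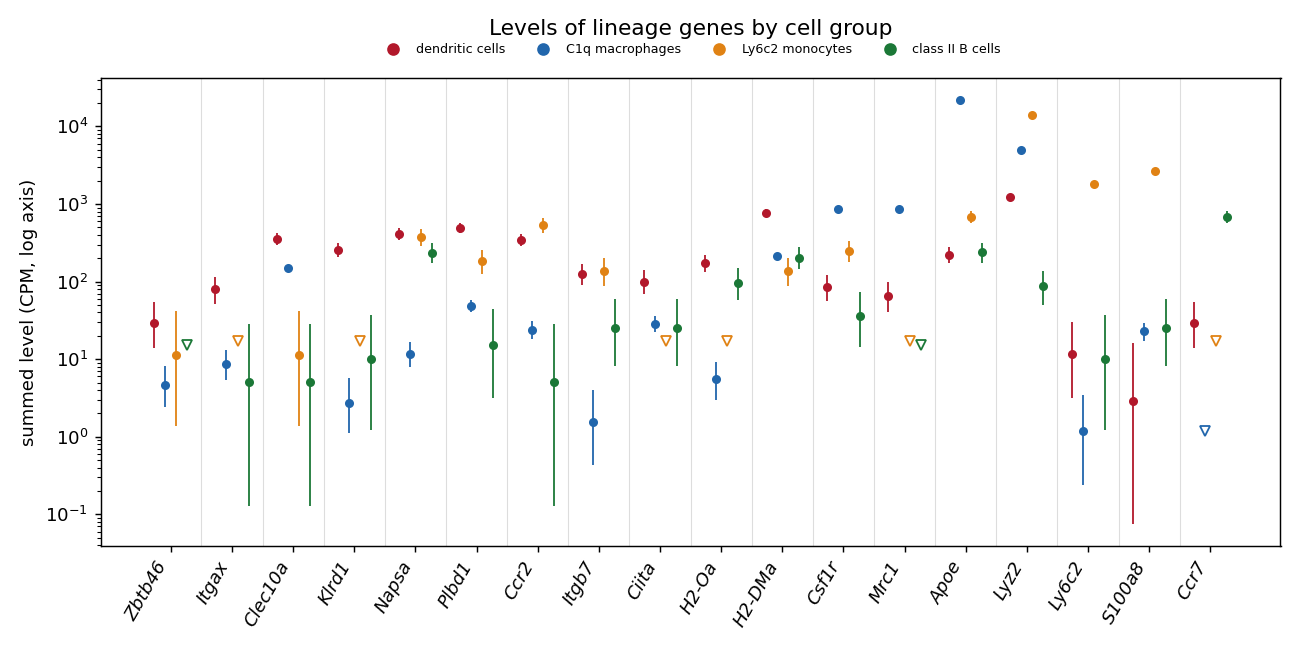
Summed level of 18 lineage genes in dendritic cells, C1q macrophages, Ly6c2 monocytes and class II B cells, in CPM on a log axis, with exact 95% Poisson intervals as lines and open triangles at 3 counts where a group had 0 UMIs. Klrd1, Napsa, Ccr2, Itgb7 and H2-Oa lie higher in dendritic cells than in macrophages, while Apoe, Mrc1 and Csf1r lie lower.

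Set against all 4471 other cells, 25.9% of 13996 measured genes were at least 2-fold higher in dendritic cells and 23.8% lower. The interval excluded no difference for only 1156 of the 3622 higher genes and 1914 of the 3336 lower ones. The 15 leading genes outside the selection were H2-Oa, Napsa, H2-DMb1, H2-DMa, Klrd1, Traf1, Ccr2, Plbd1, Gm2a, Tnfsf9, Clec10a, Fxyd5, Gpr132, S100a4 and Bcl3. Traf1, a TNF receptor adaptor, was at 237 CPM in dendritic cells and 6.40 in the other cells. Fxyd5, a regulator of cell adhesion, was at 1492 against 77.0 CPM and present in 95.8% of dendritic cells. Gpr132, a receptor for lysophospholipids and lactate, was at 211 against 7.38 CPM, and Bcl3, an NF-kappaB cofactor, at 235 against 9.55 CPM.

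Macrophage genes were low in the dendritic cells. Of 22 measured macrophage markers, 21 were at least 2-fold lower and 0 higher, with a median log2 ratio of -3.57 (genes at 0 UMIs taken at their bound). Among all measured genes 26.3% were lower by as much and 5.98% higher. Cd163, a scavenger receptor gene, was the exception at 96.7 CPM against 87.9. The selection limits C1q, which marks macrophages, so a low level of their other genes is partly fixed by it. Csf1r, the receptor for the macrophage growth factor, was at 85.0 against 865 CPM (log2 ratio -3.35, -3.93 to -2.82). Of the 22 UMIs of the transcription factor gene Maf in dendritic cells, 18 lay in the 4 barcodes with RNA of other lineages. Trem2 was at least 44.2-fold lower, against a floor of 3 counts over the dendritic cells.

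The same direction was seen in genes of degradation. Of 21 measured lysosomal and phagocytic genes, 15 were at least 2-fold lower in dendritic cells than in macrophages and 0 higher, with a median log2 ratio of -2.05. The shares over all measured genes were 26.3% lower and 5.98% higher. Ctsb and Ctsd, cathepsin proteases, were at 281 against 2469 CPM and at 117 against 896 CPM. The lysozyme gene Lyz2 was at 1214 against 5031 CPM. The cystatin gene Cst3, an inhibitor of cathepsins, was present in all 72 cells at 6998 against 4083 CPM, a log2 ratio of 0.78 (0.71 to 0.84).

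Costimulatory genes were divided. Of 10 measured, 6 were at least 2-fold higher than in macrophages and 2 lower, with a median log2 ratio of 1.25. Over all measured genes the shares were 5.98% higher and 26.3% lower. Tnfsf9, the ligand of 4-1BB on T cells, was at 261 against 38.9 CPM (2.75, 2.32 to 3.17), Slamf7, a SLAM-family receptor, at 114 against 15.3 and Cd40, the receptor for T cell help, at 64.5 against 9.82. Cd80 was at 29.3 against 9.82 CPM, whereas Cd86, its partner in binding CD28, was at 141 against 267 CPM (log2 ratio -0.93, -1.38 to -0.50). Lgals9 and Vsir, which encode checkpoint ligands, were the lower pair at 11.7 against 77.7 and 58.6 against 136 CPM. With each cell weighted equally the counts were 5 higher and 3 lower. The ligand of PD-1 encoded by Pdcd1lg2 had 0 UMIs, and Cd274 had 8.

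Il1b, which encodes interleukin 1 beta, had the most UMIs of the listed cytokine genes in the dendritic cells (3′ counts, which do not scale with gene length). It was at 1225 CPM (1111 to 1349) in dendritic cells, 259 in macrophages, 526 in monocytes and 168 in B cells. Per dendritic cell it ranged from 0 to 56 UMIs with a median of 2, and 49 of 72 cells had a UMI. The log2 ratio to macrophages was 2.24 (2.06 to 2.42), and 1.86 with each cell weighted equally. The log2 ratio to monocytes was 1.22, but 0.48 with each cell weighted equally. That to B cells was 2.86, but 1.65 with 1000 detected genes, 1.84 with at most 10% mitochondrial UMIs and 4.26 without barcodes of high doublet score. Of the 13 measured cytokine genes 3 were at least 2-fold higher than in macrophages (Il1b, Ebi3 and Areg) and 5 lower, against 5.98% and 26.3% of all measured genes. Tnf was at 129 against 768 CPM and Il1a at 5.86 against 97.8 CPM. Il12b and Il23a, cytokines by which dendritic cells steer T cells, had 0 UMIs in the dendritic cells.

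Chemokine genes were lower as a group. Of 15 measured, 11 were at least 2-fold lower than in macrophages and 2 higher, with a median log2 ratio of -3.98. Ccl2, which attracts monocytes, was at 361 against 5698 CPM (-3.98, -4.25 to -3.73), Cxcl2, which attracts neutrophils, at 202 against 4360, and Ccl4 at 261 against 2821. Ccl12 was at least 93.8-fold lower and Ccl8 at least 59.1-fold lower, both with 0 UMIs in dendritic cells. Ccl6 and Ccl9, CC chemokines of myeloid cells, went the other way at 202 against 51.0 and 214 against 51.8 CPM. Of 19 immediate early and dissociation response genes 4 were at least 2-fold lower in dendritic cells and 2 higher, with a median log2 ratio of -0.54. The lower count is near the share over all measured genes (26.3% lower, 5.98% higher). The part of dissociation in the chemokine difference was not tested.

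Receptors for movement and growth factors included genes shared with monocytes. Ccr2, the receptor for Ccl2, was at 343 CPM (284 to 411) in dendritic cells, 23.9 in macrophages and 532 in monocytes, and it had a UMI in 45 of 72 dendritic cells. Itgb7, an integrin chain of leukocyte homing, was at 126, 1.57 and 137 CPM in the same order. Monocytes were selected with Ccr2, so its level in them is partly fixed by the selection. Itgb7 was not part of that selection. Of 10 measured migration receptors 4 were at least 2-fold higher than in macrophages and 3 lower, among them the fractalkine receptor Cx3cr1 (23.5 against 384 CPM). Csf2rb, the shared chain of the GM-CSF receptor, was at 226 against 39.3 CPM. With Csf2rb2 it made up the 2 of 17 measured growth factor and cytokine receptors that were at least 2-fold higher, while 6 were lower. For both lists, the shares over all measured genes were 5.98% higher and 26.3% lower.

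**Figure D3:**
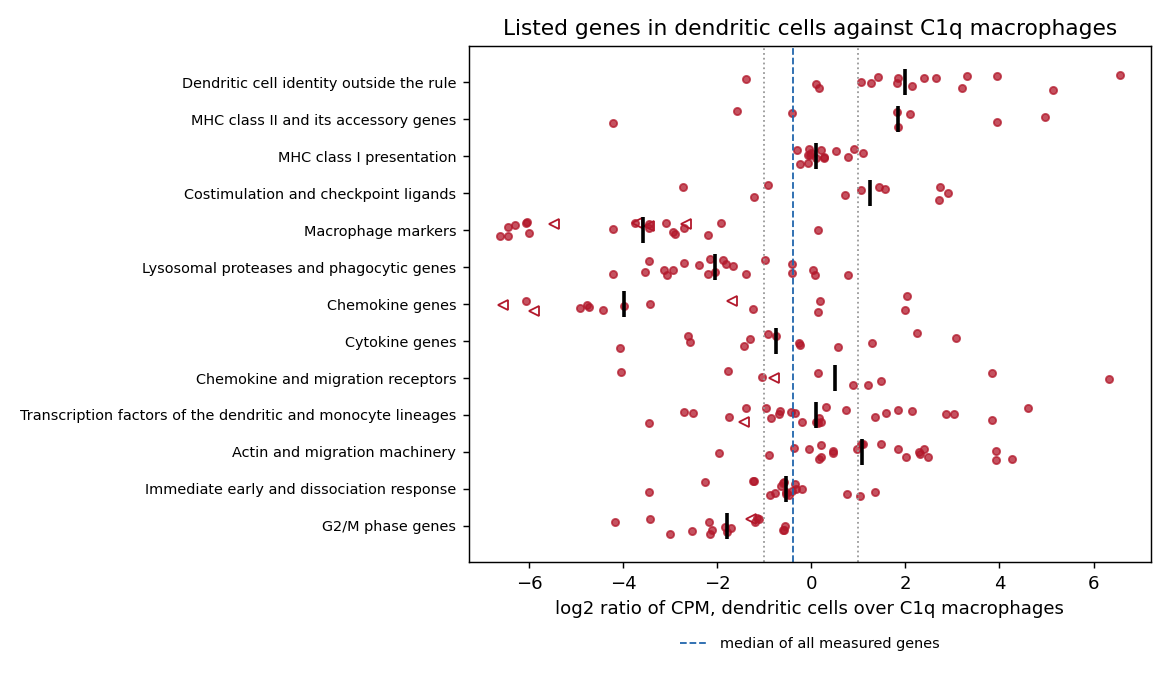
Log2 ratio of CPM of dendritic cells over C1q macrophages (horizontal axis) for measured genes of 13 lists, with 1 point per gene, open triangles for upper limits where dendritic cells had 0 UMIs, black bars at list medians, dotted lines at 2-fold and a dashed line at the median of all measured genes. Dendritic cell identity genes have a median of 2.00 and macrophage markers of -3.57, while the dashed line lies at -0.38.

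Genes of the cytoskeleton and of calcium-binding S100 proteins were higher. Of 22 actin and migration genes 12 were at least 2-fold higher than in macrophages and 1 lower (Fscn1), with a median log2 ratio of 1.07. The shares over all measured genes were 5.98% higher and 26.3% lower. S100a6 was at 1692 against 87.6 CPM, a log2 ratio of 4.27, S100a4 at 1032 against 67.9, and Lsp1, an actin-binding protein of leukocytes, at 715 against 46.7. S100a4 had a UMI in 69.1% of dendritic cells thinned to 1500 UMIs, in 3.02% of macrophages, in 88.9% of monocytes and in 2.12% of mesenchymal cells.

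Among transcription factors, 8 of 27 measured were at least 2-fold higher than in macrophages and 6 lower. Over all genes measured in that comparison 5.98% were higher and 26.3% lower, so the lower count is near the general share. The list median was 0.10, but it was -0.34 with each cell weighted equally and -0.11 without the 4 barcodes. Bhlhe40 was at 314 against 12.96 CPM, Nfil3 at 123 against 8.64, and the AP-1 partners Batf and Batf3 at 343 against 41.6 and 85.0 against 23.6. Etv3 and Runx3 were at 328 against 45.2 and 152 against 34.5 CPM. Irf8, needed for type 1 dendritic cells, was at 46.9 CPM, lower than the 123 of macrophages, the 103 of monocytes and the 112 of B cells. Irf4, of type 2 dendritic cells and B cells, was at 41.0 CPM with 14 UMIs, against 5.89 in macrophages and 112 in B cells.

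Most genes of the G2/M phase were lower than in macrophages, and fewer of the S phase. Of 17 measured G2/M genes, 14 were at least 2-fold lower than in macrophages and 0 higher, with a median log2 ratio of -1.80, and 9 were lower with each cell weighted equally. Of 16 S phase genes 7 were at least 2-fold lower, 0 higher and 9 within 2-fold, where 26.3% of all measured genes were lower. Mki67 itself, a marker of dividing cells, was at 52.8 CPM against 78.9, a log2 ratio of -0.58 whose interval (-1.36 to 0.12) includes no difference, and it had a UMI in 9 of 72 dendritic cells.

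Against Ly6c2 monocytes, which are fewer, 2020 genes could be measured, of which 10.9% were at least 2-fold higher in dendritic cells and 11.7% lower, with a median log2 ratio of -0.15. Class II accessory genes were higher in 5 of 7 measured, with H2-DMb1 at 677 against 34.3 CPM (4.30, 3.16 to 5.76) and H2-Oa at least 10.1-fold higher. Monocytes were selected for class II UMIs below the threshold that dendritic cells had to reach. A higher level of genes that go with class II is therefore partly fixed by the selection of both groups. Genes of dendritic cell identity were at least 2-fold higher in 10 of 13 and lower in 1, with Clec10a at 358 against 11.4 CPM and Klrd1 at least 15.04-fold higher. Cd83, a maturation marker that stabilises class II at the surface, was at 583 against 34.3 CPM. Napsa and Itgb7, both far higher than in macrophages, had intervals that include no difference from monocytes: Napsa was at 413 against 377 CPM (log2 ratio 0.13, -0.30 to 0.58) and Itgb7 had a log2 ratio of -0.12 (-0.88 to 0.66). Of 7 measured chemokine genes, 4 were at least 2-fold higher than in monocytes, among them Ccl4 and Cxcl16, and 1 was lower (Cxcl2).

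Monocyte genes were lower in the dendritic cells. Of 11 measured monocyte markers outside the selection 8 were at least 2-fold lower and 0 higher. Among all genes measured against monocytes 11.7% were lower by as much and 10.9% higher. Chil3, a chitinase-like gene of monocytes and neutrophils, was at least 171-fold lower with 0 UMIs, Fn1, fibronectin, was at 35.2 against 1303 CPM, and Plac8 at 258 against 1915. S100a8 was at 2.93 CPM with 1 UMI against 2624 CPM, a log2 ratio of -9.81 (-15.11 to -7.32). The transcription factor Cebpb was at 841 against 2418 CPM. Monocytes also carried mesenchymal collagen RNA, with Col1a1 at 2184 CPM against 126 in dendritic cells; its part in these differences was not tested. The actin and migration list, mostly higher against macrophages, had 1 of 21 genes at least 2-fold higher in dendritic cells and 5 lower.

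Against class II B cells, 19.5% of 2084 measured genes were at least 2-fold higher in dendritic cells and 14% lower, with a median log2 ratio of 0.05. Both express class II, and their loading genes differed. H2-DMb1 was at 677 against 71.4 CPM (3.25, 2.47 to 4.14) and Ctss at 909 against 245, while H2-Ob, the other chain of H2-DO, was lower at 58.6 against 219 CPM (-1.90, -2.75 to -1.11). H2-Oa was at 173 against 96.9 CPM, a log2 ratio of 0.84 (0.07 to 1.66), and at 2.02 when cells needed 1000 detected genes. All 8 measured chemokine genes and 7 of 8 Fc receptor and adaptor genes were at least 2-fold higher in dendritic cells, such as Fcer1g at 2090 against 189 CPM. Ccr7 and Cxcr4, receptors of lymphoid homing, were lower at 29.3 against 684 and 129 against 638 CPM. B cells were shallower, and the number of genes at least 2-fold lower in dendritic cells was 291, but 112 when cells needed 1000 detected genes.

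The dendritic cells were not uniform. Genes of 3 programmes were looked for in each cell by thresholds on summed UMIs, which cut a range and do not define types. At least 2 UMIs of the type 1 genes Xcr1, Clec9a, Cadm1 and Itgae were found in 5 cells, 6.94% (2.29 to 15.5), while 11 more cells had 1. The same threshold was met by 10.8% of macrophages and 2.82% of mesenchymal cells, so it does not single out type 1 cells. Of these 5 cells 2 held RNA of another lineage, 4 had Flt3 and 0 had Mgl2. Xcr1, the chemokine receptor of type 1 cells, and Clec9a, their receptor for dead cells, each had 3 UMIs in 3 of the 72 cells.

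The type 1 list as a whole rested partly on those barcodes. Of 7 measured genes 4 were at least 2-fold higher than in macrophages (median log2 ratio 1.36), but 3 without the 4 barcodes, with a median of -0.13. Cd24a, a surface sialoprotein also of epithelium, was at 152 CPM with them and at 40.3 CPM without, while Batf3, Wdfy4 and Naaa were at 85.0, 88.0 and 129 CPM with them and at 97.4, 90.7 and 141 CPM without. Type 2 markers were mixed against macrophages, with Clec10a and Itgam at least 2-fold higher and Sirpa, Clec4a2 and Cd4 lower among 8 measured. Cd4 had 0 UMIs. For both lists, 5.98% of all genes measured against macrophages were higher and 26.3% lower.

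Genes of maturation and division were looked for in the same way. At least 3 UMIs of Ccr7, Fscn1, Ccl22 and Il4i1 were found in 2 cells (2.78%, 0.338 to 9.68), against 2.82% of macrophages, 27.1% of B cells and 20.7% of mesenchymal cells, so this sum is not particular to mature dendritic cells. Ccr7 had 10 UMIs in 4 cells. At least 2 UMIs of Mki67, Top2a, Cenpf, Birc5 and Ccna2 were found in 6 cells, 8.33% (3.12 to 17.3), against 14.5% of macrophages, 25.9% of monocytes, 17.3% of mesenchymal cells and 2.35% of B cells, which differ in depth. Plac8 was present in 11 cells with up to 36 UMIs in a cell.

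**Figure D4:**
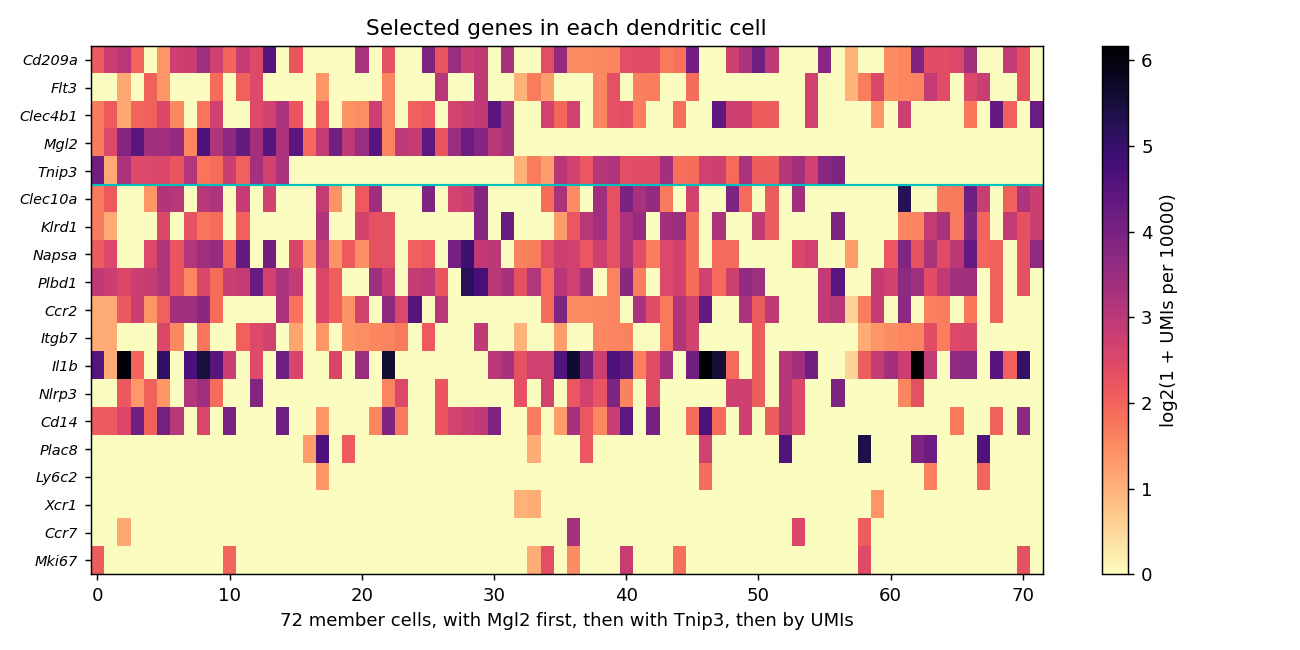
UMIs per 10000 as log2(1 + value) for 19 genes (rows) in each of the 72 dendritic cells (columns), ordered by the presence of Mgl2, then of Tnip3, then by depth; the line separates the 5 genes of the selection from the others. Il1b reaches the darkest values and is absent from some cells of each part of the map, and Ly6c2, Xcr1 and Ccr7 appear in 4, 3 and 4 cells.

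Cells with and without each gene of the selection were then compared without the 4 barcodes of mixed RNA, a division chosen after seeing the data. Cells without a given gene needed at least 2 UMIs of the other genes of the selection. What differs between the sides is therefore partly fixed by the selection. A gene counted as measured if both sides together held at least 20 UMIs. For Tnip3, an inhibitor of NF-kappaB signalling, 39 cells with a UMI were set against 29 without, at median depths of 4119 and 4311 UMIs. Of 1687 genes 8.95% were at least 2-fold higher in cells with Tnip3 and 3.73% lower, and of 179 listed genes 19 were higher and 5 lower.

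Among the listed genes Nlrp3, the inflammasome sensor, was at 282 CPM with and 58.1 without Tnip3 (log2 ratio 2.28, 1.13 to 3.67) and was detected in 21 of 39 against 5 of 29 cells. The lipopolysaccharide coreceptor Cd14 was at 531 against 174 CPM, in 25 against 12 cells. Cd40 was at 113 against 16.6 CPM, in 12 against 2 cells, and the interleukin subunit gene Ebi3 at 158 against 41.5, in 18 against 5 cells. Tnfaip3, which encodes the NF-kappaB inhibitor A20, and Traf1, Etv3, Batf and Cxcl16 had log2 ratios of 1.27 to 1.51. Lower were Bst2 (107 against 341 CPM), Cd7 (39.5 against 133) and Hmox1 (39.5 against 133). Bst2 was detected in 16 of 39 against 14 of 29 cells, with up to 12 UMIs in a cell. Differences in Apoe and Ube2c rested on single cells that held 57 and 24 UMIs. Plac8 had 11 UMIs with Tnip3 and 74 without, the latter in 5 cells of which 1 held 36.

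The division by Mgl2 set other genes apart. With Mgl2 detected in 30 cells and not in 38, 3.62% of 1687 genes were at least 2-fold higher with it and 5.63% lower. Clec4a2, an inhibitory lectin, was at 180 against 36.6 CPM (2.30, 0.97 to 3.88) and in 13 against 5 cells. Higher with Mgl2 were also the type 2 marker Sirpa at 247 against 122 CPM, Klf4 at 195 against 91.4, Fcgr3 at 247 against 104, Cd163 at 165 against 54.8, Csf1r at 142 against 60.9 and Ccl4 at 435 against 164. Lower were Traf1 at 135 against 366 CPM (-1.44, -2.29 to -0.66), Runx3 at 97.4 against 219, Nfil3 at 74.9 against 189 and Bst2 at 112 against 274. Bst2 was detected in similar shares, 13 of 30 against 17 of 38 cells, with up to 12 UMIs in a cell.

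Cd7, an immunoglobulin-family receptor of lymphocytes and some dendritic cells, was found only in cells without Mgl2 among these 68, with 0 UMIs in 30 cells against 23 UMIs in 10 of 38 cells. In all 72 cells Cd7 had 24 UMIs in 11 cells, with median depths of 4675 UMIs with it and 4231 without. Flt3 was detected in 7 of the 11 Cd7 cells and 23 of the other 61, Clec4b1 in 3 of 11 and 42 of 61, and Cd209a in 9 of 11 and 40 of 61. Runx3 was in 7 of 11 and 19 of 61, Bst2 in 7 of 11 and 25 of 61, Klrd1 in 9 of 11 and 28 of 61, and Naaa in 0 of 11 and 16 of 61. A count of 0 in 11 cells allows a share of up to about 27.3% of cells with a UMI, taken as 3 of 11 and not from the exact interval.

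**Figure D5:**
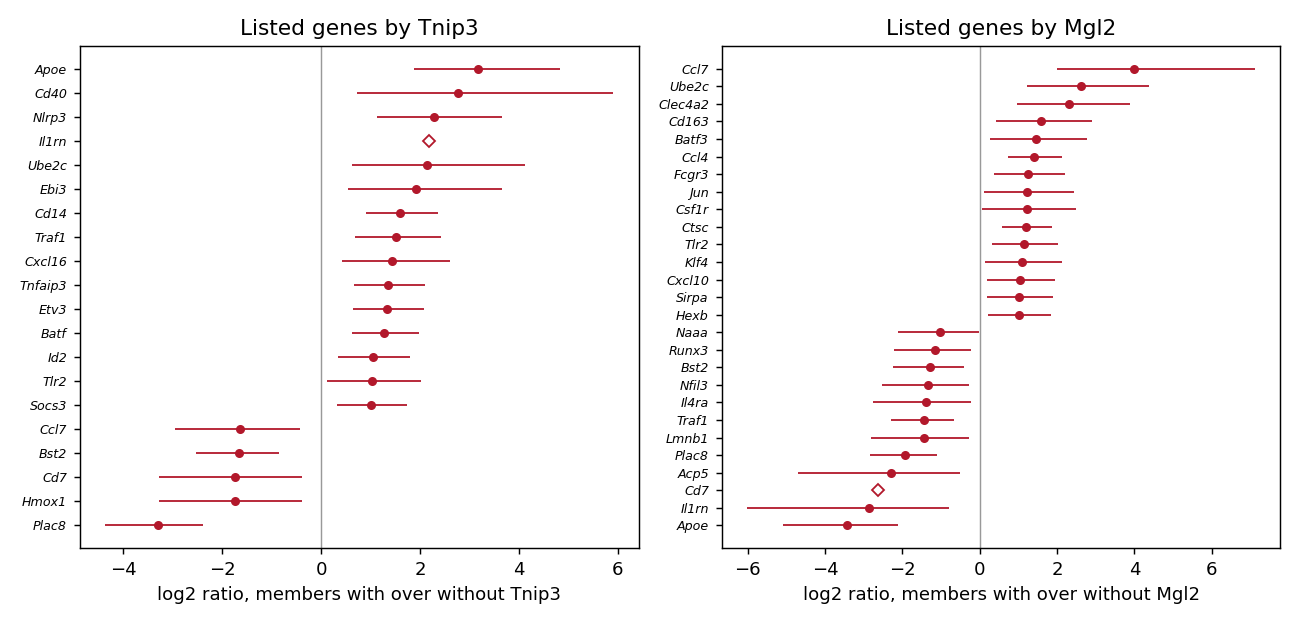
Log2 ratio of CPM in dendritic cells with over those without a Tnip3 UMI (left) and an Mgl2 UMI (right) for listed genes at least 2-fold apart whose interval excludes no difference, with exact 95% intervals as lines and open diamonds for limits where 1 side had 0 UMIs. Nlrp3, Cd40 and Cd14 lie to the right for Tnip3, and Cd7 lies to the left for both genes.

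The divisions by Cd209a, Flt3 and Clec4b1 gave further patterns. Median depths with and without the gene were 4456 and 3482 UMIs for Cd209a, 4859 and 3609.5 for Flt3, and 4175 and 4321 for Clec4b1. Cells with Cd209a (48 against 20) held more Clec10a (493 against 194 CPM), Klrd1 (344 against 170), Napsa (520 against 255) and Itgb7 (167 against 60.7), and 7.53% of 1687 genes were at least 2-fold higher with it and 5.28% lower. Cd163 was in 20 of 48 cells with Cd209a and 1 of 20 without, while Lyz2 was at 934 against 2403 CPM but detected in 41 of 48 against 12 of 20 cells, with up to 51 UMIs in a cell. Cells with Flt3 (28 against 40, 4.21% higher and 3.62% lower) held more Naaa at 253 against 43.9 CPM and Csf2rb at 340 against 163. They held less Itgax at 36.2 against 138 and Csf1r at 50.6 against 138. Naaa was detected in 9 against 6 cells, with up to 13 UMIs in a cell. Csf2rb was detected in 18 against 15 cells, with up to 12 UMIs in a cell. Cells with Clec4b1 (44 against 24, 5.16% higher and 4.21% lower) held more H2-Oa at 247 against 107 CPM, Fcgr2b at 401 against 165 and Tnf at 195 against 48.6, and less Runx3 at 87.3 against 311.

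Il1b also varied widely between the cells. At least 5 Il1b UMIs were present in 23 of the 68 cells, whose median depth was 5074 UMIs against 3391 in the other 45. Of 1686 genes 5.28% were at least 2-fold higher in the former and 4.92% lower. Nfkbia, an NF-kappaB inhibitor, was at 1309 against 599 CPM (log2 ratio 1.13), Socs3 at 472 against 215, Fos at 944 against 464 and Myd88, the Toll-like receptor adaptor, at 174 against 67.9. Fos and Socs3 are also genes that respond to tissue dissociation, and their part was not tested.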

How the data were processed

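Lower incisor cells of untreated mice were profiled with 10x Genomics 3′ chemistry. The values are raw UMI counts per gene and barcode in 1 matrix deposited by the authors; per the file headers it was written by software version 3.0.2. Build mm10 is given in the submitters' processing notes, and the aligner is not given in the sources used here. Both titles (2 lanes) were treated as 1 sample, and 0 columns were left unused. Groups were cut by UMI thresholds. Counts were summed per group as CPM with exact intervals (scipy 1.17.1), and a gene with 0 counts on 1 side was given a bound from 3 counts over the group. The comparison used genes with at least 30 UMIs over both sides that no threshold of either group used, called at 2-fold, and was checked on simulated data. Cells were thinned to 1500 UMIs for shares, which left out 4 dendritic cells, 30 macrophages, 0 monocytes, 30 B cells and 3 mesenchymal cells. Doublets were scored with Scrublet (scanpy 1.11.5, expected share 5%); the automatic threshold called 3 barcodes, so a score above 0.15 was used (108, 2.38%), and such barcodes were kept and left out as an alternative. Of 520 symbols in 34 gene lists, 4 were not analysed here. Named genes are those of the selection, the 15 leading genes (5 CPM added, at least 30 UMIs, present in at least 25% of the cells), up to 4 per list and comparison with the largest ratios, genes that define a list, and a fixed set of dendritic and monocyte genes. One gene of this rule is not reported here. Further genes were named after their values were seen. The cells, lists and thresholds were chosen with earlier results of these data known. Promoter sequences are from RefSeq (GRCm38.p6), matched by symbol for 8 of 9 H2 class II genes.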

Additional observations from a re-analysis of the deposited data

How the results depend on the processing

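Requiring 1000 detected genes, at most 10% mitochondrial UMIs, 50 class II UMIs, 4 UMIs of the selecting genes or 0 C1q UMIs, or leaving out doublet scores above 0.15, gave 56, 56, 70, 52, 67 and 69 dendritic cells in place of 72. The number of genes at least 2-fold lower than in B cells was 291 as reported, 112 with 1000 detected genes and 107 with at most 10% mitochondrial UMIs. With 100 UMIs needed over both sides, fewer genes were tested and the higher and lower counts were 189 and 754 against macrophages, 51 and 54 against monocytes, 109 and 42 against B cells, and 1747 higher against all other cells. With no minimum and 0.5 added to both counts, more genes were tested and these were 3443 and 3081, 1954 and 2647, 2255 and 3328, and 7888 higher. Macrophages and all other cells hold more UMIs in total than the dendritic cells. Against them the added 0.5 can make a gene with 0 UMIs in the dendritic cells count as higher, so these higher counts are not counts of detected genes. Csf1r against B cells had a log2 ratio of 1.25 as reported and -0.0065 with 1000 detected genes; the cause was not tested. Of 1154 values of 30 single genes under the alternatives, 1073 moved by less than their interval, 80 moved by more, and 1 reversed. Leaving out genes above 1% of UMIs moved the median log2 ratio of all genes by less than 0.1 in each comparison. Weighting cells equally changed the counts of several lists by 2 or more, among them G2/M genes against macrophages and transcription factors against monocytes (8 higher and 5 lower as reported, 6 and 3 then). Leaving out the 4 barcodes with RNA of other lineages, chosen after seeing the data, left 68 cells, with 445 genes higher and 2137 lower than in macrophages. No paired analysis was possible because all cells come from 1 matrix without replicate labels on barcodes. Depth limits genes such as Xcr1 and Clec9a, where 3 UMIs are the whole evidence.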

Other observations

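Interferon-stimulated genes and sensors of microbial products have not been described above. Of 15 measured interferon-stimulated genes, 1 (Ifitm3) was at least 2-fold higher in dendritic cells than in macrophages and 6 were lower, and the counts were 2 and 5 without the 4 barcodes that held RNA of other lineages. Of 18 measured Toll-like and cytosolic sensors 1 was higher (Myd88, at 96.7 against 47.1 CPM) and 6 were lower. Beside these counts, 5.98% of all genes measured against macrophages were higher and 26.3% lower. Nlrp3 and Tlr2 lay near macrophages at 179 against 186 and 173 against 183 CPM. Against monocytes Nlrp3 was at 179 against 80.0 CPM, a log2 ratio of 1.16 (0.31 to 2.11). No osteoclast gene was at least 2-fold higher among 5 measured, and 4 were lower.

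Plasmacytoid dendritic cells were left out by the condition on Siglech, and 25 cells of the matrix had at least 3 Siglech UMIs. In the dendritic cells Bst2, a gene of plasmacytoid cells and of interferon responses, was at 191 CPM, against 512 in macrophages and 71.4 in B cells. Spib had 5 UMIs in 3 cells and Tcf4 was present in 6 of the 11 cells with Cd7 and in 12 of the other 61.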
